A study of Mus musculus with 12 samples.

Results

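The genes described here are 37 genes of DNA repair and of the DNA damage checkpoint, measured in the aorta of mice in a model of aortic dissection, on a day before dissections develop in it. They were chosen by name, and every non-control probe whose gene name is one of the 37 symbols was taken, 53 probes in all. The list was drawn up with earlier results of these data known. The array carried all 37 genes. A probe was tested where its spots stood well above the local background on all 3 arrays of at least 1 treatment group, and 30 of the 37 genes passed, out of 20026 gene names tested in the whole series. By role, the 37 fall into 7 groups, which are break sensing and marking, checkpoint kinases and their partners, homologous recombination, Fanconi anaemia and damage bypass, mismatch repair, end joining and single-strand break repair.

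The study used male C57BL/6J mice that were 11 to 14 weeks old, with 3 samples, each on an array of its own, in each of 4 groups, and all aortas were taken on day 3. The labels do not say whether the samples are separate mice, so p-values measure the spread between these samples. The challenge was beta-aminopropionitrile at 150 mg/kg/day, an inhibitor of the enzymes that crosslink collagen and elastin, together with angiotensin II at 1 µg/kg/min, a peptide that can raise blood pressure, both from osmotic pumps. The study reported that neither the challenge nor rapamycin changed systolic blood pressure in its mice. Rapamycin, an inhibitor of the growth kinase mTOR, was dissolved in dimethylsulfoxide (DMSO) and injected daily, at 2 mg/kg/day. Mice of the DMSO group were given vehicle only and those of the rapamycin group rapamycin only, while the BA+DMSO group was challenged under vehicle and the BA+rapamycin group under rapamycin. The titles of the DMSO samples call them Pre, while the series record names them DMSO alone at the same day. None of the groups carries a genetic change, and the tissue is the whole wall of a 10 mm aortic segment, so fewer cells of a type and less RNA per cell cannot be told apart.

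Cells meet damaged DNA with sensors, kinases and repair enzymes. Breaks are bound by the complex of Mre11a, Rad50 and Nbn and marked by phosphorylation of the histone H2afx, and the kinases Atm and Atr with their relays Chek2 and Chek1 halt the cell cycle. Homologous recombination copies the lost sequence from the sister chromatid and is largely limited to S and G2 phase, whereas end joining by the Xrcc5 and Xrcc6 (Ku) proteins works throughout the cycle. The Fanconi anaemia proteins open crosslinks that block the replication fork. Much of this control acts on proteins through phosphorylation and ubiquitin, which arrays of RNA do not record.

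Every value below is a log2 signal, the log2 of a probe's processed intensity minus the 75th percentile of its array, so that 0 is the brightness of that percentile. Differences are log2 differences between group means from limma with their standard error (SE), tested two-sidedly, with p adjusted by the Benjamini-Hochberg method over all 27801 probes tested. A gene was called at an adjusted p under 0.05, and each gene stood by its brightest probe. The 75th percentile of processed signal lay between 247 and 376 intensity units on the 6 unchallenged arrays and between 81.0 and 282 on the 6 challenged arrays. All 12 probes of smooth muscle markers were above background on all 12 arrays. All 3 DMSO arrays and 1 rapamycin array shared a slide and the other 8 arrays shared the second slide, so the slide and the challenge cannot be told apart in BA+DMSO against DMSO. BA+DMSO replicate 2 stood apart from its group: of the 30 tested members, it was the lowest of the 3 BA+DMSO arrays for 21 and the highest for 8.

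The first comparison asked which repair genes differed in the aorta under the challenge, BA+DMSO against DMSO. The 6 genes that rose were Rad51ap1, Rad54l and Blm of homologous recombination, Fanca of the Fanconi pathway, Rad18 of damage bypass and Timeless of the replication fork, with log2 differences from 1.12 to 4.17. The 2 genes that fell were Trp53bp1 and Rad1, by 0.90 and 0.67. Of the 30 tested members, 6 were called higher (9.65% of all probes tested were) and 2 lower (10.8% of all probes). The median difference over the 30 was 0.02, against -0.04 over all probes. Fanca and Rad51ap1 passed the filter only through the challenged groups, where they were high, and so had to differ. Chek2 and Xrcc2 passed only through the unchallenged groups. Among the 24 members above background on all 12 arrays, 4 were called higher, against 10.7% of such probes, and 2 lower, against 10.5%.

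Homologous recombination held 3 of the 6 rises. Rad51ap1, which promotes strand pairing, lay at -3.82, -3.39 and -3.51 on DMSO replicates 1, 2 and 3, above background on 2 of them, and at 1.45, -0.52 and 0.85 in BA+DMSO. Every BA+DMSO array was above every DMSO array, with replicate 2 the lowest of the challenged arrays. The fitted difference was 4.17 ± 0.46 (SE, n = 3 per group, limma adjusted p = 0.00042). Its size rests in part on a DMSO array that was not above background.

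Rad54l, the motor protein that remodels DNA during strand exchange, lay at -2.77, -2.73 and -3.02 in DMSO and at -0.37, -1.44 and -1.24 in BA+DMSO. The groups did not overlap, and the difference was 1.82 ± 0.29 (adjusted p = 0.00232), or 3.53-fold. Blm, a helicase that dissolves recombination intermediates, lay at -2.13, -1.71 and -2.19 in DMSO and at -0.38, -1.56 and -0.75 in BA+DMSO. Here BA+DMSO replicate 2 came close to the highest DMSO array, and the difference was 1.12 ± 0.30 (adjusted p = 0.0266). The call for Blm was lost without DMSO replicate 1 (adjusted p = 0.082), DMSO replicate 2 (0.053), DMSO replicate 3 (0.087) or BA+DMSO replicate 1 (0.099).

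Bard1 and Brca2 were split within the BA+DMSO group. Bard1, the binding partner of Brca1, lay between -2.24 and -2.02 in DMSO and at -0.10, -2.23 and -0.54 in BA+DMSO. Brca2, a mediator of recombination, lay between -2.03 and -1.29 in DMSO and at -0.36, -2.17 and -0.71 in BA+DMSO. For both, replicates 1 and 3 were above every DMSO array while replicate 2 lay within or below the DMSO range. Bard1 was not well above background on replicate 2, so its level there was not measured. Neither was called, with differences of 1.18 ± 0.45 (adjusted p = 0.0834) for Bard1 and 0.61 ± 0.47 (adjusted p = 0.382) for Brca2. Rad52, a strand annealing protein, and Xrcc2, which acts in strand exchange, had differences of -0.15 and -0.13 and were not called.

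The genes of the Fanconi pathway and of damage bypass divided. Fanca, a subunit of the Fanconi core ubiquitin ligase, lay at -3.73, -5.22 and -4.30 in DMSO, above background on 1 array, and at 0.31, -1.20 and -0.21 in BA+DMSO. All 3 challenged arrays were above all 3 DMSO arrays, with a fitted difference of 4.05 ± 0.59 (adjusted p = 0.00147) whose size rests on DMSO signals mostly not above background. Rad18, the ubiquitin ligase that starts bypass synthesis at stalled forks, lay at -0.70, -1.27 and -0.55 in DMSO and at 0.67, 1.05 and -0.26 in BA+DMSO. It was higher by 1.33 ± 0.33 (adjusted p = 0.0185), with BA+DMSO replicate 2 the highest of the group, unlike in Rad51ap1, Rad54l and Blm. Its call was lost without DMSO replicate 2 (adjusted p = 0.087) or BA+DMSO replicate 1 (0.066). Fancc, another core subunit, was not called by its brighter probe, at 0.25 ± 0.17, while its dimmer probe was called lower, as given below.

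Among checkpoint genes, no tested kinase was called by its brightest probe, and Chek1 was not tested. The other Atm probe, of nearly equal brightness, was called lower, as given below. Atm, the kinase that answers to breaks, had a difference of 0.12 ± 0.30, Atr, the kinase that answers to stalled forks, -0.49 ± 0.17 (adjusted p = 0.0693), Chek2 0.18 ± 0.52 and Atrip, which carries Atr to DNA, -0.07 ± 0.21. Timeless, which protects replication forks, was the checkpoint gene called higher. It lay at -1.29, -1.04 and -1.04 in DMSO and at 1.44, -0.18 and 0.48 in BA+DMSO, with no overlap and a difference of 1.70 ± 0.32 (adjusted p = 0.00526).

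Rad1, a subunit of the ring-shaped clamp loaded at damage, was the checkpoint gene called lower. It lay at 1.43, 1.58 and 1.54 in DMSO and at 0.98, 0.42 and 1.15 in BA+DMSO, and its groups did not overlap. The difference was -0.67 ± 0.20 (adjusted p = 0.0408). The call was lost when any DMSO array was left out (adjusted p from 0.084 to 0.135), without BA+DMSO replicate 1 (0.069) and without BA+DMSO replicate 2 (0.052). Topbp1, an activator of Atr, was high on BA+DMSO replicates 1 and 3 (0.89 and 0.58) and lay at -0.65 on replicate 2, below its DMSO range of -0.63 to -0.40, and was not called at 0.76 ± 0.33 (adjusted p = 0.12).

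Break sensing and marking held 1 called gene. Trp53bp1, which steers breaks toward end joining, lay at 1.75, 1.86 and 1.92 in DMSO and at 0.62, 0.96 and 1.26 in BA+DMSO. No BA+DMSO array reached the DMSO range, and the difference was -0.90 ± 0.21 (adjusted p = 0.0144). It was lost without DMSO replicate 2 (adjusted p = 0.060), DMSO replicate 3 (0.054) or BA+DMSO replicate 1 (0.053). The subunits of the break-binding complex had differences of 0.60 for Mre11a (adjusted p = 0.0575), -0.33 for Rad50 and -0.54 for Nbn, and none was called. H2afx, the histone whose phosphorylated form marks breaks, lay at 3.18, 1.58 and 2.50 in BA+DMSO against 1.46 to 1.97 in DMSO and was not called at 0.72 ± 0.32. Mdc1, the scaffold that reads that mark, had -0.02 ± 0.16.

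The remaining roles had no called member in this contrast. In mismatch repair, the differences were -0.50 for Msh3, -0.29 for Msh6 and 0.06 for Pms2. The Ku subunits had -0.13 for Xrcc5 and -0.39 for Xrcc6, and for single-strand breaks Parp1, which senses them, had -0.56 and its scaffold Xrcc1 -0.02. The median over tested members was 1.12 for homologous recombination (7 genes) and 1.33 for Fanconi and bypass (3 genes, and 0.79 for the 2 above background on all arrays), against 0.12 for checkpoint genes (7), -0.18 for break sensing (6), -0.29 for mismatch repair (3), -0.26 for end joining (2) and -0.29 for single-strand break repair (2).

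**Figure D1:**
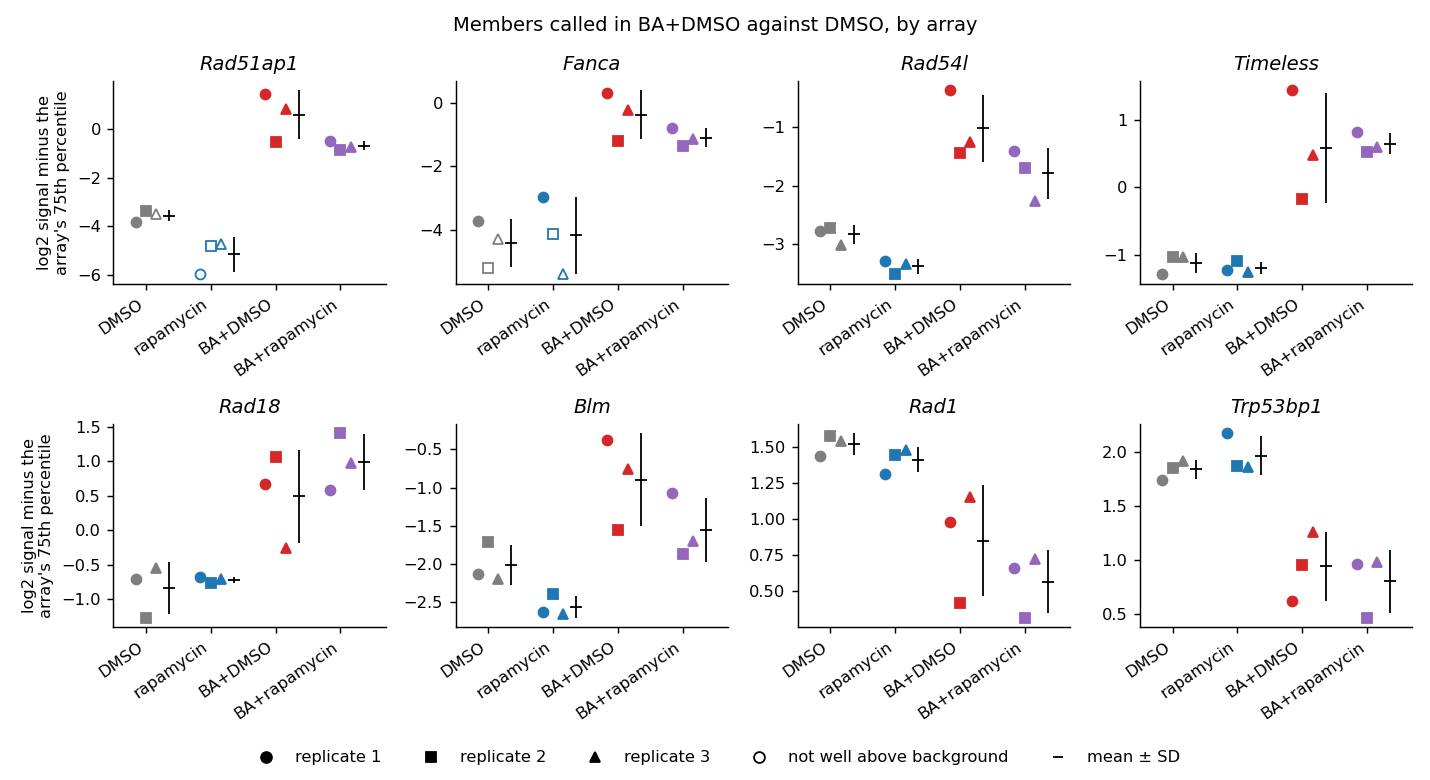
Log2 signal relative to each array's 75th percentile for the 8 members called in BA+DMSO against DMSO, 1 point per array (n = 3 per group, open where not well above background) with the mean ± SD. Rad51ap1 and Fanca lie at -2.98 or lower on all unchallenged arrays and at -1.38 or higher on all challenged arrays, and BA+DMSO replicate 2 (square) is the lowest BA+DMSO array for 6 of the 8.

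The 8 calls rested unevenly on the processing. Rad51ap1, Fanca and Rad54l stayed called when only the DMSO and BA+DMSO arrays were fitted, and no member did with slide as a fixed block, where 13 of 27801 probes were called higher and 2 lower. The differences with that block were 5.83 for Fanca, 2.94 for Rad51ap1, 1.97 for Rad54l, 1.65 for Timeless, 1.38 for Rad18 and 1.01 for Blm, and -0.82 for Rad1 and -0.59 for Trp53bp1. With normexp background correction, which compresses dim signals, Fanca had a difference of 1.91 and Rad51ap1 of 2.39, and 15 members were called (11 higher and 4 lower, each side beside 11.8% of all probes). Without BA+DMSO replicate 2, 12 were called, 10 higher (13.6% of all probes) and 2 lower (13.6%). Those added on the higher side were Topbp1 (1.22, adjusted p = 0.0013), Bard1 (1.82, adjusted p = 0.00117), Mre11a (0.84, adjusted p = 0.00178) and H2afx (1.14, adjusted p = 0.00447). Without BA+DMSO replicate 3, 12 were called as well, 6 higher (17.3% of all probes) and 6 lower (20.7%).

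The other 7 genes did not pass the filter, and their values are descriptions. Exo1, the nuclease that resects broken ends, lay between -5.59 and -4.99 in DMSO, none above background, and at 0.11, -2.96 and -0.72 in BA+DMSO, above background on 2 arrays. Fanci, whose product clamps DNA together with Fancd2, lay between -5.27 and -4.29 in DMSO and at -0.63, -2.33 and -1.17 in BA+DMSO, also above background on 2 arrays. Both genes were again above background on 2 of 3 BA+rapamycin arrays, at -1.96 and -2.09 for Exo1 and at -2.48 and -2.23 for Fanci. Brip1, a helicase partner of Brca1, was above background on 3 of 12 arrays, and Fancd2 and Clspn, an adaptor for Chek1, on 1 each. Brca1 and Chek1 were above background on no array, so that nothing can be said of their levels.

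The challenge was also measured in rapamycin-treated mice, as BA+rapamycin against rapamycin, on arrays that share none with the first comparison. The 6 genes that rose in BA+DMSO were called higher here too. Of these, Rad54l, Blm, Rad18 and Timeless were above background on all arrays, while Fanca and Rad51ap1 entered only through the challenged groups, so that their repeated call gives no support. Rad51ap1 lay at -5.99, -4.80 and -4.72 in rapamycin, not well above background on any array, and at -0.48, -0.84 and -0.73 in BA+rapamycin. It was thus at least 10.5-fold higher (fitted difference 4.49 ± 0.46, adjusted p = 0.000163). Fanca rose by 3.07 ± 0.59 (adjusted p = 0.00328), from -2.98, -4.13 and -5.41 to -0.79, -1.38 and -1.13, with no overlap.

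The other 4 rises had similar sizes in both settings. Timeless went from between -1.26 and -1.10 to 0.82, 0.52 and 0.59, a difference of 1.84 ± 0.32 (adjusted p = 0.00216). Rad18 went from between -0.77 and -0.69 to 0.58, 1.40 and 0.98, a difference of 1.71 ± 0.33 (adjusted p = 0.00349). Rad54l went from -3.29, -3.52 and -3.35 to -1.41, -1.69 and -2.27, by 1.60 ± 0.29 (adjusted p = 0.00263), and Blm from -2.63, -2.39 and -2.65 to -1.08, -1.87 and -1.70, by 1.00 ± 0.30 (adjusted p = 0.0235). In none of these 6 genes did the rapamycin and BA+rapamycin arrays overlap. Over the whole list, 8 of 30 members were higher without overlap, beside 29.8% of all probes. The call for Blm was lost without rapamycin replicate 1 (adjusted p = 0.067), rapamycin replicate 3 (0.075) or BA+rapamycin replicate 1 (0.080).

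On the lower side, 9 members were called under the challenge in rapamycin-treated mice. Counted over all 30, 6 were higher, where 18.9% of all probes were, and 9 lower, where 22.9% of all probes were. Of the 24 members above background on all arrays, 4 were higher, against 20.7% of such probes, and 8 lower, against 23.4%. The largest falls were Trp53bp1 (-1.16 ± 0.21, adjusted p = 0.00254) and Parp1 (-1.07 ± 0.24, adjusted p = 0.00611), followed by Rad1 (-0.84 ± 0.20, adjusted p = 0.00915) and Msh3 (-0.68 ± 0.18, adjusted p = 0.0138). Parp1 lay at 0.38, 0.34 and 0.53 in rapamycin and at -0.50, -0.98 and -0.48 in BA+rapamycin, with no overlap. Xrcc2 was not well above background on any BA+rapamycin array and was at least 1.01-fold lower (fitted difference -1.14 ± 0.42, adjusted p = 0.0467). Since it passed the filter only through the unchallenged groups, where it was higher, its place among the 9 gives no support. Nbn, Atr, Rad50 and Xrcc6 fell by 0.51 to 0.62. All 9 also had a mean below that of DMSO in the first comparison, where only Trp53bp1 and Rad1 were called.

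Several of these falls rested on single arrays. Leaving out single arrays of either group cost the calls of Nbn (adjusted p from 0.052 to 0.173), Xrcc6 (up to 0.156), Xrcc2 (up to 0.166), Atr (from 0.053 to 0.095) and Rad50 (0.052 to 0.057), while Trp53bp1, Parp1, Rad1 and Msh3 stayed called, as did the rises other than Blm. With the title date as a block, and likewise with array brightness as a covariate, 2 of the 15 stayed called, Rad51ap1 (4.40 and 5.71) and Timeless (2.03 and 2.31). With normexp background correction, Xrcc2 turned to a difference of 0.48. With both rapamycin arrays of the second slide against BA+rapamycin, so within 1 slide, 6 members were called. These were Rad51ap1 (4.08, adjusted p = 0.00805), Fanca (3.67, adjusted p = 0.0102), Rad18 (1.73, adjusted p = 0.0381), Rad54l (1.64, adjusted p = 0.0375) and Timeless (1.82, adjusted p = 0.0371) on the higher side (6.05% of all probes) and Trp53bp1 (-1.06, adjusted p = 0.0498) on the lower side (5.71%). Blm, at 0.97, was not called within the slide (adjusted p = 0.120).

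**Figure D2:**
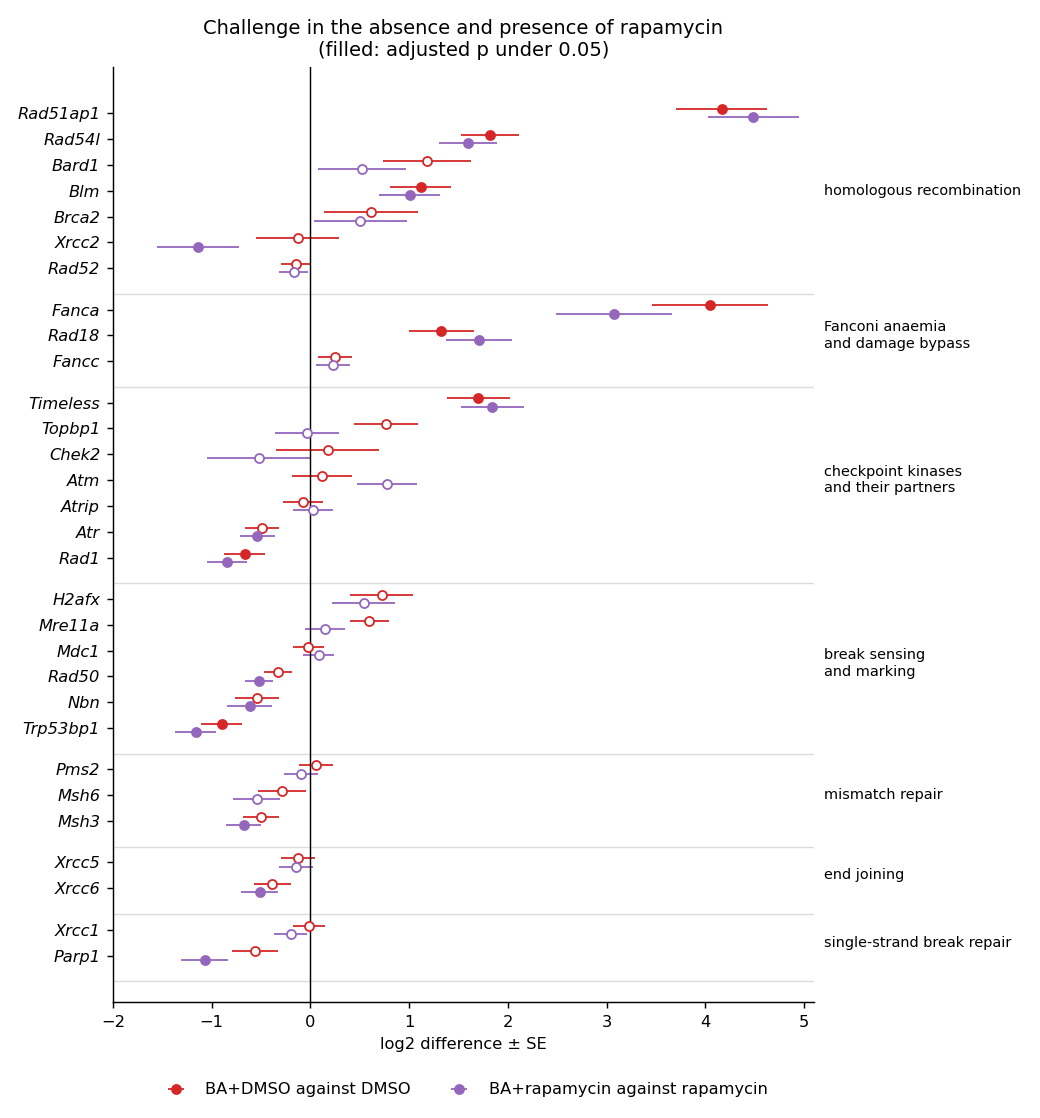
Log2 differences ± SE of the 30 tested members for BA+DMSO against DMSO (red) and BA+rapamycin against rapamycin (purple), grouped by role and filled where the adjusted p was under 0.05 (n = 3 arrays per group). The 6 genes called higher, of which Fanca and Rad51ap1 passed the filter only through the challenged groups, are filled in both and lie in homologous recombination, Fanconi and bypass, and the checkpoint group.

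Whether rapamycin changed these genes under the challenge was tested by BA+rapamycin against BA+DMSO, which shares its BA+DMSO arrays with the first comparison. No member was called in limma, and 0.281% of all probes were. An unadjusted p under 0.05 was found for 9 of 30 members and for 20.1% of all probes. The mean was lower with rapamycin for 25 of the 30 members, and the median difference was -0.35 against -0.01 over all probes. With array brightness as a covariate the median was -0.13. The 6 largest fitted differences included Rad51ap1 at -1.28 ± 0.46 (adjusted p = 0.189), Topbp1 at -0.80 ± 0.33 (0.221), Rad54l at -0.77 ± 0.29 (0.202) and Fanca at -0.73 ± 0.59 (0.44). The other 2 were Xrcc2 and Chek2, which were not well above background on any BA+rapamycin array and whose bound did not reach a fold over 1, so no size is given. Group values did not overlap for 3 members that were lower (7.57% of all probes), Msh3, Xrcc6 and Rad50, and for 1 that was higher (6.9% of all probes), Rad52.

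On single arrays, BA+DMSO replicate 2 often lay with the BA+rapamycin group. Rad51ap1 lay at 1.45 and 0.85 on BA+DMSO replicates 1 and 3, above its BA+rapamycin values of -0.48, -0.84 and -0.73, while BA+DMSO replicate 2 lay among them at -0.52. Topbp1 lay at 0.89 and 0.58 on the same pair, at -0.65 on replicate 2 and at -0.49, -0.76 and -0.31 in BA+rapamycin. Chek2 lay at -2.23 and -2.60, then at -4.58 on replicate 2 and at -4.57, -4.50 and -3.48 in BA+rapamycin, and neither replicate 2 nor any BA+rapamycin array was well above background for it.

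Xrcc2 had the same layout, with -2.22 and -2.34, then -3.65 on replicate 2, and -3.35, -4.49 and -3.65 in BA+rapamycin. In Rad54l the layout was looser, since only BA+DMSO replicate 1 (-0.37) stood clearly above and replicates 2 and 3 (-1.44 and -1.24) lay by the upper BA+rapamycin arrays (-1.41, -1.69 and -2.27). BA+DMSO replicate 2 and BA+rapamycin replicate 2 were also the 2 dimmest arrays, with 75th percentiles of 85.4 and 81.0 intensity units. The part of brightness in the values of that array was not tested.

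Without BA+DMSO replicate 2, 15 of the 30 members were called lower with rapamycin, where 22.5% of all probes were, and 2 higher, where 17.4% were. This array was set aside because its values, the members' among them, stood apart from its group. The calls without it depend on that choice and are a description. The 15 include Chek2 and Xrcc2, whose BA+rapamycin arrays were not well above background, so their sizes were not measured. Falls with measured sizes included Rad51ap1 (-1.83 ± 0.36, adjusted p = 0.00604), Bard1 (-1.26 ± 0.25, adjusted p = 0.00616) and Topbp1 (-1.26 ± 0.17, adjusted p = 0.00251). By role, 5 of 7 members were lower in homologous recombination, 3 of 7 among checkpoint genes, 3 of 6 in break sensing, 2 of 3 in mismatch repair, 1 of 2 in end joining and 1 of 2 in single-strand break repair, and none of 3 in Fanconi and bypass. The genes called higher were Atm (0.91 ± 0.18, adjusted p = 0.00621) and Rad52 (0.41 ± 0.12, adjusted p = 0.0263). For Atm this is 1 probe: with all arrays it had 0.49 and the second Atm probe -0.51 in this comparison. Leaving out BA+DMSO replicate 1 or 3 in place of replicate 2 gave 0 called members, where 0.806% and 0.122% of all probes were called. For Chek2 and Xrcc2 the direction turned with normexp background correction on all arrays, to 0.03 and 0.02.

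**Figure D3:**
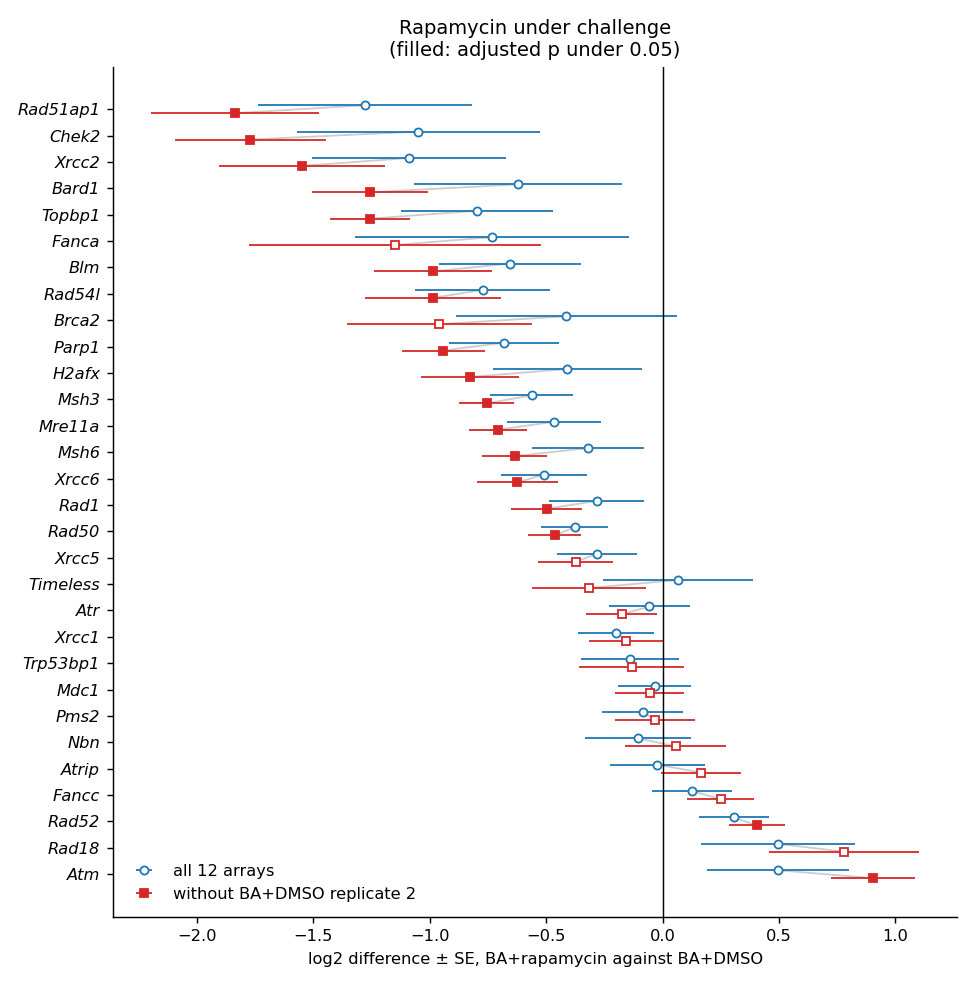
Log2 differences ± SE of the 30 tested members for BA+rapamycin against BA+DMSO, with all 12 arrays (circles) and without BA+DMSO replicate 2 (squares), filled where the adjusted p was under 0.05. None is filled with all arrays, and 15 lower and 2 higher members are filled without that array, which was set aside because its values stood apart.

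Rapamycin alone against DMSO, which shares its DMSO arrays with the first comparison, gave no called member, and 0.0036% of all probes, a single one, were called. One member had an unadjusted p under 0.05 (4.27% of all probes), and the mean was lower with rapamycin for 22 of 30, with a median difference of -0.09 (all probes -0.01). That member was Rad51ap1, whose rapamycin arrays (-5.99, -4.80 and -4.72) were all below the DMSO arrays and none above background. The mean of these samples was at least 1.42-fold lower, with DMSO replicate 3 itself not above background. The difference was not called (fitted difference -1.60 ± 0.46, limma adjusted p = 0.751). Rad54l lay at -3.29, -3.52 and -3.35 against -2.77, -2.73 and -3.02 in DMSO, a difference of -0.55 ± 0.29 with no overlap. Blm lay at -2.63, -2.39 and -2.65 against -2.13, -1.71 and -2.19, a difference of -0.54 ± 0.30, also with no overlap. Msh3, a sensor of looped-out bases, lay at 1.03, 1.05 and 0.96 against 1.40, 1.42 and 1.39, a difference of -0.39 ± 0.18. Values did not overlap for 6 members that were lower and 1 that was higher, beside 10.7% and 10.8% of all probes.

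The interaction asked whether the effect of rapamycin differed between challenged and unchallenged mice. No member was called (0% of all probes), none had an unadjusted p under 0.05 (6.12% of all probes), and differences ran from -0.80 (Topbp1) to 0.65 (Atm) among the 24 members above background on all arrays. Without BA+DMSO replicate 2, 4 members were called, with Topbp1 (-1.26, adjusted p = 0.0309), Bard1 (-1.30, adjusted p = 0.0437) and Mre11a (-0.69, adjusted p = 0.0404) lower (7.08% of all probes) and Atm (1.06, adjusted p = 0.0376) higher (3.92%). As that array was set aside for its values, these calls too are a description. The second Atm probe had an interaction of -0.38 with all arrays, against 0.65 for the first.

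There were 9 members with 2 tested probes, and these did not always move alike. Atm had a pair of nearly equal brightness, at a mean of -1.50 for the probe at chr9:53256167-53256226 and -1.53 for that at chr9:53245871-53245930 (build mm9, as the array files give it). The first lay at -1.76, -1.64 and -1.54 in DMSO and -1.75, -0.70 and -2.12 in BA+DMSO, with a difference of 0.12. The second lay at -1.12, -0.93 and -0.68 and then at -1.43, -2.56 and -1.47, with no overlap and a difference of -0.91 ± 0.29 (adjusted p = 0.0468). Under rapamycin the second probe was lower too, with a difference of -1.29 ± 0.29 (adjusted p = 0.00666), against 0.77 for the first, so that the direction for Atm depends on the probe.

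Fancc, Rad1 and Pms2 also had probes of opposite sign. The dimmer Fancc probe (chr13:63406052-63406111) lay at -3.18, -2.89 and -3.49 in DMSO and at -5.31, -4.54 and -5.58 in BA+DMSO, where no array was above background, at least 1.03-fold lower (fitted difference -1.95 ± 0.33, adjusted p = 0.00329). The brighter one (chr13:63412847-63412887) had 0.25. For Rad1, the called probe (chr15:10423292-10423351) fell while the dimmer one (chr15:10425737-10425796) lay at -1.96, -2.33 and -1.88 in DMSO and -1.37, -0.44 and -2.27 in BA+DMSO, a difference of 0.70 ± 0.37. That dimmer probe was called higher under rapamycin (1.04 ± 0.37, adjusted p = 0.0426), and the fall of Rad1 is a result for 1 probe. The dimmer Pms2 probe had -1.07 against 0.06 for the brighter one, and neither was called. Both probes of Trp53bp1 (-0.90 and -1.10), of Atr (-0.49 and -0.52), of Rad50, of Msh3 and of Bard1 (1.18 and 0.64) had the same sign in BA+DMSO against DMSO. Under rapamycin the second probes of Rad50 (0.42 ± 0.40), Msh3 (0.034 ± 0.42, not well above background on any challenged array) and Bard1 (-0.18 ± 0.41) had the opposite sign to the first, so the falls of Rad50 and Msh3 there are results for 1 probe each.

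**Figure D4:**
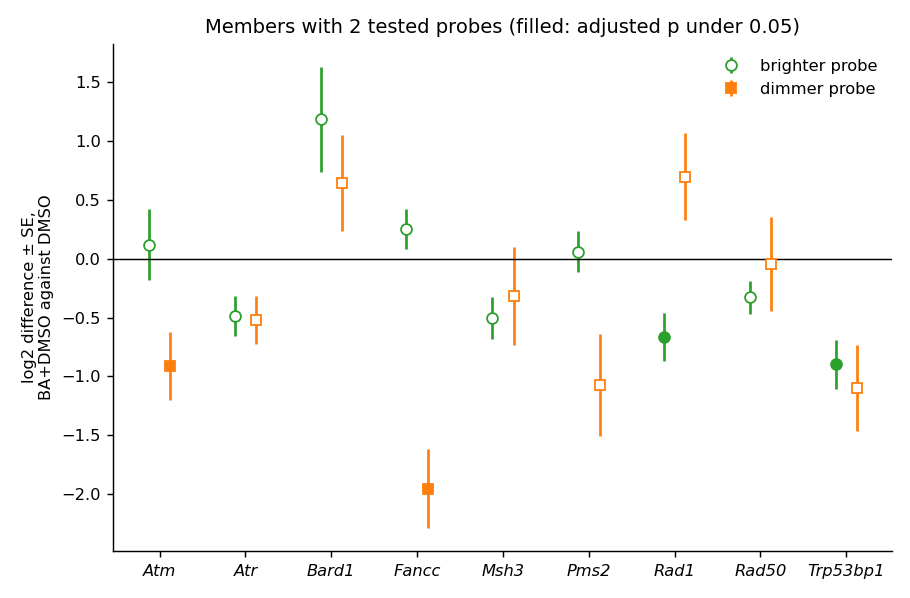
Log2 difference ± SE in BA+DMSO against DMSO for the 9 members with 2 tested probes, the brighter as a circle and the dimmer as a square, filled where the adjusted p was under 0.05. Atm, Fancc, Pms2 and Rad1 have 1 probe on each side of 0.

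The probes of the called genes lie, on build mm9, at chr6:126873482-126873541 for Rad51ap1, chr8:125792210-125792269 for Fanca, chr4:115769618-115769677 for Rad54l, chr10:127689823-127689882 for Timeless, chr6:112570622-112570681 for Rad18, chr7:87600243-87600302 for Blm and chr2:121024792-121024851 for Trp53bp1. Second probes of Fanca, Rad18 and Timeless did not pass the filter.

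Other genes of these pathways were listed by role from general knowledge, and 76 of the 87 were tested. In BA+DMSO against DMSO, 8 were called higher (beside 9.65% of all probes) and 14 lower (beside 10.8%), and their median difference was -0.30. Those of homologous recombination, 16 tested, had 4 higher and 2 lower and a median of 0.30, but 1 higher, 2 lower and a median of -0.067 among the 11 above background on all arrays. Those of nucleotide excision repair, 13 tested, had 2 higher and 4 lower and a median of -0.38. Among the largest rises were Eme1, a subunit of a junction-cutting nuclease above background on 1 of 3 DMSO arrays (fitted difference 2.89 ± 0.35, adjusted p = 0.000669), Recql4, a helicase (1.39 ± 0.30, adjusted p = 0.0102), and Lig1, the ligase that joins Okazaki fragments (1.30 ± 0.19, adjusted p = 0.00172).

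The largest falls in that list were Xpc, which recognises bulky lesions (-1.46 ± 0.17, adjusted p = 0.000575), Aptx, which cleans aborted ligation ends (-1.29 ± 0.40, adjusted p = 0.0445), Rad51l3, of homologous recombination (-1.19 ± 0.25, adjusted p = 0.00922), and Ercc6, which acts in transcription-coupled repair (-1.11 ± 0.29, adjusted p = 0.0214). Under rapamycin the challenge gave 8 higher and 25 lower among the 76, beside 18.9% and 22.9% of all probes, and rapamycin under challenge gave none called, with 9 at an unadjusted p under 0.05, beside 20.1% of all probes.

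Targets of p53, the transcription factor downstream of the checkpoint kinases, moved in both directions. Of 20 listed, 18 were tested, and 4 were higher (beside 9.65% of all probes) and 2 lower (beside 10.8%) in BA+DMSO, with a median of -0.08. Higher were Plk2, a kinase (1.82 ± 0.37, adjusted p = 0.00753), Phlda3, an inhibitor of Akt (0.86 ± 0.18, adjusted p = 0.00935), Aen, a nuclease of apoptosis (0.74 ± 0.17, adjusted p = 0.0137), and Bax, a pore former of mitochondria (0.59 ± 0.15, adjusted p = 0.0216). Lower were Btg2, an antiproliferative factor (-2.01 ± 0.31, adjusted p = 0.00195), and Trp53inp1, a cofactor of p53 (-1.97 ± 0.33, adjusted p = 0.00307). Cdkn1a, the p21 inhibitor through which the checkpoint halts the cycle, was not called at 0.85 ± 0.37 (adjusted p = 0.125) and had 0.08 ± 0.37 under rapamycin.

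Markers of proliferation were higher in the challenged groups as well. Of 20, 17 were tested and 13 were higher in BA+DMSO (9.65% of all probes were), with a median difference of 3.16. Under rapamycin, 10 were higher (18.9% of all probes were), with a median of 2.41. Among the 12 above background on all arrays, 9 were higher in BA+DMSO (median 2.14, beside 10.7% of such probes) and 6 under rapamycin (median 1.18, beside 20.7%). Their median level against the DMSO mean lay between -0.02 and 0.04 in DMSO, at 4.14, 1.72 and 3.61 in BA+DMSO and at 2.07, 1.79 and 1.74 in BA+rapamycin. The homologous recombination members lay at 1.63, 0.05 and 1.26 and at 0.72, 0.14 and 0.57 on the same arrays, so that BA+DMSO replicate 2 was the lowest of its group for both. Rad18 was highest on that array, and Rad18 and Timeless had means of 0.99 and 0.64 in BA+rapamycin against 0.49 and 0.58 in BA+DMSO. Leukocyte (1.26 against 2.53 and 1.90), fibroblast (-0.23 against 0.99 and 0.29) and p53 target genes (-0.45) were also lowest on BA+DMSO replicate 2, and smooth muscle (0.12 against -1.56 and -0.43) and adipocyte markers (2.52 against 1.64 and 0.29) were highest. Leukocyte markers rose as well, 8 of 9 tested (9.65% of all probes did), with a median level of 1.26 to 2.53 in BA+DMSO against -0.26 to 0.56 in DMSO. Smooth muscle markers had 2 of 10 called lower (10.8% of all probes were) and a median level from -1.56 to 0.12 in BA+DMSO. Of the other markers, 3 of 8 endothelial, 2 of 7 fibroblast and 1 of 7 adipocyte genes were called higher (9.65% of all probes were) and none lower (10.8%). The adipocyte count was 0 of 6 among genes above background on all arrays. The part of cell cycle state and of cell types in the members' values was not tested.

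**Figure D5:**
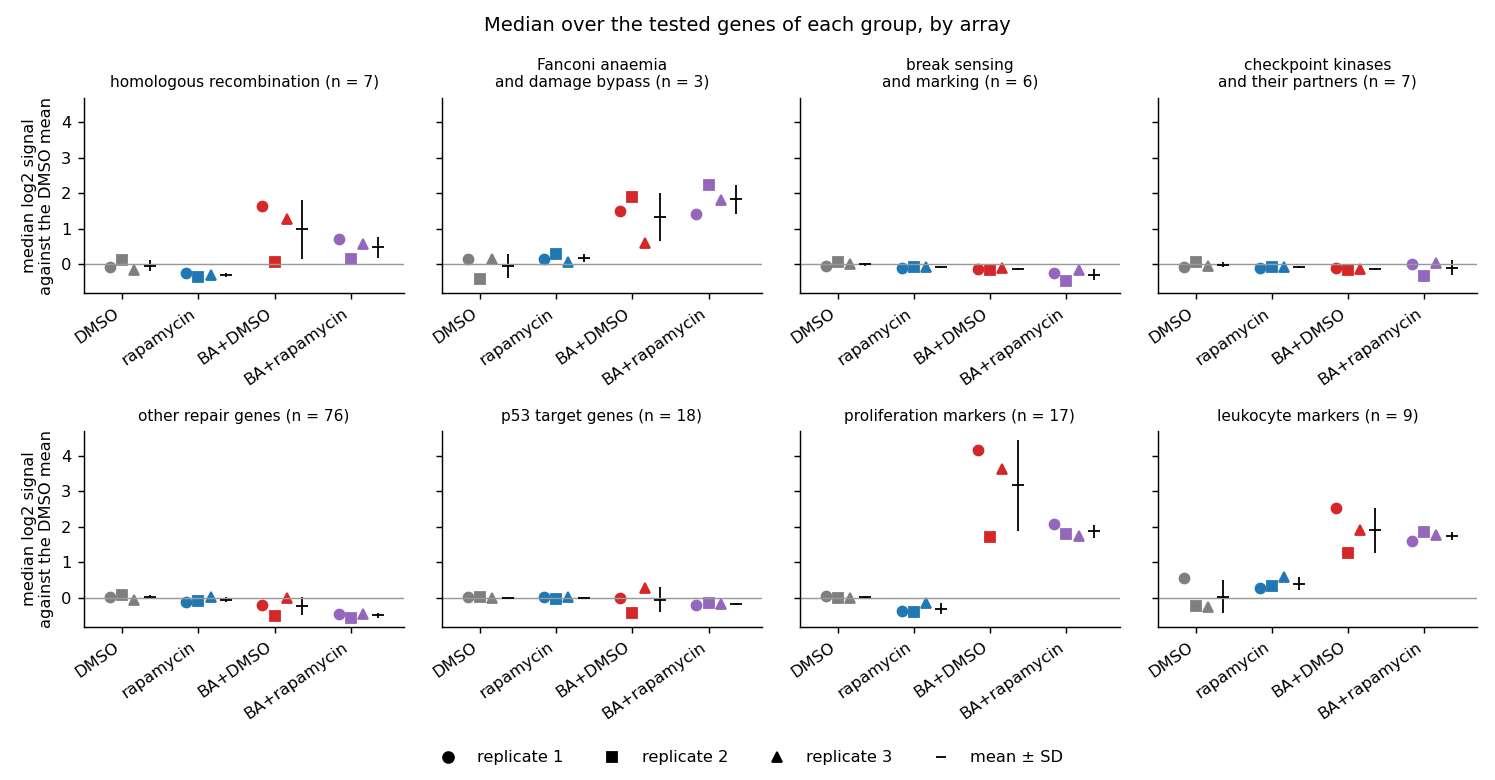
Median log2 signal against the DMSO mean over the tested genes of 4 roles of the members and of 4 other lists, 1 point per array with the mean ± SD (n = 3 per group). On BA+DMSO replicate 2 (square) the homologous recombination members lie at 0.05 and the proliferation markers at 1.72, below replicates 1 and 3.

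Promoter sequences were read for 31 of the 37 members from a RefSeq table on build GRCm38.p6, in windows from 250 bases before to 50 bases after the transcription start. They were searched on both strands for the E2F consensus as TTTCCCGC, TTTCGCGC, TTTGCCGC or TTTGGCGC, since E2F factors drive S phase genes, for the CCAAT box and for the cell cycle homology region as TTTGAA or TTCGAA. The E2F words stood in 9 of 31 members (29.0%), against 2.6% of 27025 promoters of the table, 7.58% of other repair genes and 35.3% of proliferation markers. A CCAAT box stood in 18 of 31 members (58.1%), against 41.1% of all, and the cell cycle homology region in 2 of 31 (6.45%), against 21.7% of all. These are matches of letters, and no match says only that the letters are not in the window.

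The 250 bases before the start are shown for the 3 genes that rose most and for Topbp1, Bard1 and Chek2, which carry an E2F word. Topbp1, Bard1 and Chek2 were above every DMSO array on BA+DMSO replicates 1 and 3 but not on replicate 2, where Bard1 and Chek2 were not well above background. Brca2 also had an E2F word and this layout and is not shown. Capitals mark CCAAT boxes (ATTGG on the other strand) and E2F words, and each runs 5′ to 3′ along the gene's strand. The windows are chr6:126939588-126939837 (minus strand) for Rad51ap1, chr8:123318577-123318826 (minus) for Fanca, chr4:116123691-116123940 (minus) for Rad54l, chr9:103305077-103305326 (plus) for Topbp1, chr1:71102973-71103222 (minus) for Bard1 and chr5:110839733-110839982 (plus) for Chek2.
Rad51ap1: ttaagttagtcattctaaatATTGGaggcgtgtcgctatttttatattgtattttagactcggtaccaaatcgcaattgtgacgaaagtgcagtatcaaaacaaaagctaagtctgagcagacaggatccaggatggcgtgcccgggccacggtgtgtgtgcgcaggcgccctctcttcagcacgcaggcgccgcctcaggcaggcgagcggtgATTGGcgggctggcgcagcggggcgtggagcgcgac
Fanca: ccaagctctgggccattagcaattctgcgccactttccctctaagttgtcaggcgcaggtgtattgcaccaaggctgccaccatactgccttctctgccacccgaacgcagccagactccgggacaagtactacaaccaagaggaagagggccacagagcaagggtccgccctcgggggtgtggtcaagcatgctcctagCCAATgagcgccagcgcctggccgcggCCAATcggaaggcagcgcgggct
Rad54l: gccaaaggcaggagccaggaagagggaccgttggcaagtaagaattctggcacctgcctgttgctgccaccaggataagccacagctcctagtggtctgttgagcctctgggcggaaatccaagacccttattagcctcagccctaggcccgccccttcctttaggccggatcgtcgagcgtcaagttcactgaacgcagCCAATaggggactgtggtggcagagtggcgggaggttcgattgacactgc
Topbp1: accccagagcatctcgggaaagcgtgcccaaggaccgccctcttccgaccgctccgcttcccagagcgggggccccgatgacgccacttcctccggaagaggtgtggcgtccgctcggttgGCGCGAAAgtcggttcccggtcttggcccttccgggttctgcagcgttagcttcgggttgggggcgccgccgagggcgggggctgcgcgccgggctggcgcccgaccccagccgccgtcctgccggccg
Bard1: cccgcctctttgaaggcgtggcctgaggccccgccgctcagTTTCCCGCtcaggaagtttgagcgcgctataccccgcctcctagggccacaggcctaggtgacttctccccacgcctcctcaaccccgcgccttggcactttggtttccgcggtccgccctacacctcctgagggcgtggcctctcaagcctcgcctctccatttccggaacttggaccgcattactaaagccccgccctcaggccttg
Chek2: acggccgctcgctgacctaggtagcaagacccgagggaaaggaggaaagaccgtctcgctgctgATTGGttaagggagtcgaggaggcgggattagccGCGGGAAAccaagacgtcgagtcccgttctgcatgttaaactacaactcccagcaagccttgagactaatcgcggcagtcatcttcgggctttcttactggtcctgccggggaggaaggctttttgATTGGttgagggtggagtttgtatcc

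In Rad51ap1 the CCAAT boxes begin 230 and 36 bases before the start, in Fanca 50 and 23 and in Rad54l 50. The E2F word begins 129 bases before the start in Topbp1, 209 in Bard1 and 152 in Chek2, where 2 CCAAT boxes flank it. Topbp1 and Bard1 hold no CCAAT box in the window, and none of the 3 genes that rose most holds an E2F word. An E2F word stood in 0 of the 6 members called higher in BA+DMSO. It stood in 8 of the 20 tested members with a window that were not called higher. The E2F words of the other members lie in Brca2, Mdc1, Msh3, which has a pair that overlap on opposite strands, Msh6, Xrcc6 and Clspn.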

How the data were processed

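The authors labelled RNA of 12 aorta samples with Cy3 and hybridised each to a single-colour mouse array from Agilent, of which 2 slides were used. Per the file headers, Feature Extraction version 10.7.1.1 read the scans (the submitters' processing notes name 9.5.1.1), probes are placed on mm9, and the processed signal is an intensity that was background-subtracted and detrended within its array, on a linear scale and not normalized between arrays. Spot mean and local background intensities and flags of 0 or 1 were deposited beside it. The deposited matrix holds intensity that, judged from its values, was quantile normalized (11 of 12 columns share their quantiles, r of 0.999941 or more with such a normalization of the processed signal). Groups came from the treatment labels, and no column lacked a sample. Replicates were numbered in accession order and pair no samples.

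Outlier spots were removed, log2 values of a probe's spots averaged, and each array's 75th percentile subtracted. Of 55681 probes, 27801 had a share of at least 0.5 of spots well above background on all 3 arrays of a group and were tested, 20355 of them on all arrays. All 12 arrays entered 1 limma 3.58.1 model (R 4.3.3) with the 4 group means. Where a group had no array above background, a bound was given ("at least"), taken against the lowest signal above background. The code was tested on simulated data. The number of arrays limits the precision.

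The members and lists were chosen with earlier results of these data known. Values on every array were given for members called in the challenge contrast (up to 8 rises and 4 falls), for the 6 and 4 largest differences of the rapamycin contrasts and for members whose probes differ in call or sign. From the other repair genes and p53 targets, up to 4 called genes in each direction and Cdkn1a were named, except 1 gene that is not reported here. Bard1, Brca2, H2afx and Parp1 and the untested genes were added after their values were seen. Exons and untranslated regions of the probes were not annotated here, as no genome was used. Alternatives covered normalization, background correction, filter, block terms, array weights, probe choice and single arrays left out.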

Additional observations from a re-analysis of the deposited data

How the results depend on the processing

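The direction of the 33 named member results held in 705 of 712 alternative fits, 570 of them on the same side of the threshold. The fits reuse the same arrays. Among called results, the call was lost with the direction kept in 48 of 166 fits for the challenge and 80 of 327 under rapamycin. The named rapamycin results were not called to begin with, and stayed so in 121 of 128 fits under challenge and 89 of 91 for rapamycin alone. The 7 reversals were Rad1 with the mean of its probes (0.015, and 0.10 under rapamycin), Xrcc2 under rapamycin with normexp (0.48) or a brightness covariate (0.34), Xrcc6 under rapamycin with that covariate (0.072), and Xrcc2 (0.017) and Chek2 (0.025) for rapamycin under challenge with normexp, and the cause was not tested. Counts of the title date fit are not given, as it keeps only replicate 1 of BA+DMSO. For the challenge, 8 members were called (20.5% of all probes), and the count was 15 with normexp (23.7%) and 3 with only the groups compared (4.47%). It was 0 with slide as a fixed block (0.054%) and 17 with slide as a random block (36.9%). Array weights, whose estimation did not converge, gave 0 (0.403%), and the study's rule (p under 0.01, fold over 4 or under 0.25) gave 2. The challenge median of 0.02 became 0.18 without the filter, where 37 genes enter and the median of all probes moves to 0.43 (0.85 under rapamycin), and 0.12 with the covariate. For the challenge under rapamycin, 15 were called (41.7%), and 6 within 1 slide (11.8%, fewer arrays), 2 with the covariate (6.41%) and 2 by the study's rule. The counts by the study's rule come without the share of all probes, so they cannot be set against the series. Its median of -0.07 became 0.12 with the percentile over probes above background on all arrays, 0.15 without the filter and 0.22 with the covariate. The covariate gave medians of -0.13 for rapamycin under challenge and 0.018 for the interaction, and array weights gave 4 calls for rapamycin alone (5.44% of all probes). Leaving out single arrays gave 4 to 12 calls for the challenge (7.38% to 38% of all probes), 9 to 12 for the challenge under rapamycin (23.5% to 35%), 0 to 17 for rapamycin under challenge (0.115% to 39.9%, 17 without BA+DMSO replicate 2), 0 for rapamycin alone (0%) and 0 to 4 for the interaction (0% to 11%). The medians of the members were -0.03 to 0.07, -0.15 to 0.07, -0.56 to -0.20, -0.12 to -0.07 and -0.27 to -0.034 in that order. DMSO and rapamycin titles share the numbers 2 and 3, which do not pair the samples (r of deviations 0.170 and -0.355), and the fit with the replicate block on the 5 arrays that carry them called 0 members for rapamycin alone, as without it. Within 1 slide, rapamycin under challenge also gave 0 (0% of all probes). Genes near background have the least certain sizes, as 6 of the 30 tested members were not above it on all arrays.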
